A study of Mus musculus with 4 samples.

Results

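The Hippo pathway is described here through 10 genes: its transcriptional effectors Yap1 and Wwtr1, their DNA-binding partner Tead1, the pathway regulators Lats2, Amotl1, Amotl2 and Ajuba, and the YAP/TAZ target genes Ccn1, Ccn2 and Ankrd1. They were picked by name, with earlier results of these data known, and all 10 of them were found among the 17915 genes of the deposited table. RNA was sequenced from sorted lung endothelial cells in 4 libraries, 2 of tdTomato+ and 2 of ZsGreen+ cells, with 17050673 to 18574737 estimated counts each. All cells came from mice of the genotype Cdh5-CreER;aSMA-LSL-Dre;NR1 that had received 5 doses of tamoxifen and, for 6 weeks, a transverse aortic constriction (TAC), a surgical narrowing of the aorta. Cdh5 drives the tamoxifen-inducible Cre in endothelium, lymphatic endothelium included, and the reporter turns a green (ZsGreen+) endothelial cell red (tdTomato+) once the alpha smooth muscle actin (aSMA) gene has been active, even briefly. Both groups therefore shared every allele, the drug and the operation, and a group without the operation is not analysed here. The labels call the libraries biological replicates without tying them to mice, so each p-value reflects the spread between these libraries, which may be technical in part. The tests also pool this spread in part over genes, so a p-value does not rest on the libraries of its own gene alone.

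In the Hippo pathway, the kinases MST and LATS phosphorylate the coactivators YAP (Yap1) and TAZ (Wwtr1), which keeps them out of the nucleus. Unphosphorylated YAP and TAZ enter the nucleus, bind TEAD factors and switch on genes such as Ccn1, Ccn2 and Ankrd1. In endothelium the pathway is known to respond to matrix stiffness, flow and cell contacts. RNA levels report the output of target genes and the supply of the effectors, but not phosphorylation or location of YAP and TAZ.

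TEAD factors are known to bind DNA around the core GGAATG, which reads CATTCC on the other strand. The start-site sequences below are shown because this core is the link between the effectors and their targets, and 8 of the 10 members matched the RefSeq promoter table by gene identifier (GRCm38.p6), all but Ccn2 and Tead1. In windows from 250 bases before to 50 bases after the start, searched on both strands, 7 of these 8 genes held at least 1 GGAATG, and Amotl1 held none. The only Amotl1 window, chr9:14614951-14615250, lies inside the gene span given below. The 5′ end of that span was therefore not searched. The same core stood in 16.6% of the 27025 genes with a promoter in that table. A match of 6 letters is a description of the sequence and not evidence of a bound site. Of 2 other motifs searched on both strands, TGANTCA, the AP-1 motif, was in none of the 8 and in 8.97% of genes, and the CArG box of serum response factor was in none of the 8 and in 1.81% of genes. The 30 bases around each core follow, 5′ to 3′ on the strand of the gene, with the core in capitals. Wwtr1 has 2 starts in the table whose windows share the same core, and the second start of Lats2 held none.
Ccn1, chr3:145650071-145650100, minus strand: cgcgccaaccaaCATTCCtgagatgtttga
Ankrd1 distal, chr19:36120037-36120066, minus strand: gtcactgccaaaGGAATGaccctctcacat
Ankrd1 proximal, chr19:36119950-36119979, minus strand: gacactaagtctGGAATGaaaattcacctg
Amotl2, chr9:102717727-102717756, plus strand: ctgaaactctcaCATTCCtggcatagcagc
Ajuba distal, chr14:54577830-54577859, minus strand: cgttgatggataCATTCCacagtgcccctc
Ajuba proximal, chr14:54577808-54577837, minus strand: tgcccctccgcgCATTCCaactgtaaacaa
Yap1, chr9:8004720-8004749, minus strand: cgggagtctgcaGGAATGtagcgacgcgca
Wwtr1, chr3:57576029-57576058, minus strand: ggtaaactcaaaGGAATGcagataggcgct
Lats2, chr14:57746102-57746131, minus strand: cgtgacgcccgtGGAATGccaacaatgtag

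The core began 103 bases before the start of Ccn1, 65 before that of Amotl2 and 141 before that of Yap1. For Amotl2 the start used here lies inside the gene span given below, which begins at chr9:102717091. Its core therefore lies within that span and not upstream of it. Ankrd1 and Ajuba each held 2 cores, at 210 and 123 bases before the start in Ankrd1 and at 186 and 164 in Ajuba. In Lats2 the core lay after the start, at base 5 of the transcript. For the target genes Ccn1 and Ankrd1, the most and the least abundant of the members with a core, the whole 250 bases before the start are given with each core in capitals.
Ccn1, chr3:145649986-145650235, minus strand: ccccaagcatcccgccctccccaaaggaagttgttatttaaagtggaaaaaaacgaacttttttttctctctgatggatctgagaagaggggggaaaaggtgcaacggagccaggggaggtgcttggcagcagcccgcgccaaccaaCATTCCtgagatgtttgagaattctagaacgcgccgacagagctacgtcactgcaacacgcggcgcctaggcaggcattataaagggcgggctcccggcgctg
Ankrd1, chr19:36119845-36120094, minus strand: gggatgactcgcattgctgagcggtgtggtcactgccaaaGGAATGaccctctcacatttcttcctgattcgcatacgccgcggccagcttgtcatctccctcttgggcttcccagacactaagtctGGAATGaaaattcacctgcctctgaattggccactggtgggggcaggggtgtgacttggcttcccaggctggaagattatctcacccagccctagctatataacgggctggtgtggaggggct

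The members differed widely in level. Levels are compared between genes in TPM (transcript shares scaled to a common sum), which the authors scaled by transcript length. Ccn1 and Ccn2 led with means of 863 and 524 TPM in tdTomato+ cells and of 621 and 261 TPM in ZsGreen+ cells. Wwtr1 followed at 79.2 and 84.4 TPM in tdTomato+ and ZsGreen+ cells, then Amotl2 at 59.4 and 59.9 TPM. Yap1, Lats2 and Amotl1 stood close together between 20.5 and 35.1 TPM over all libraries. Those of Yap1 and Lats2 overlapped in ZsGreen+ cells, while in tdTomato+ cells both Yap1 libraries (31.8 and 32.0 TPM) lay just above both Lats2 libraries (30.8 and 30.1 TPM), so that their order is not set over both groups. Ajuba lay at 7.07 to 12.9 TPM, while Tead1 and Ankrd1 were near the bottom, at 0.62 to 1.43 and 0.34 to 3.07 TPM.

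**Figure D1:**
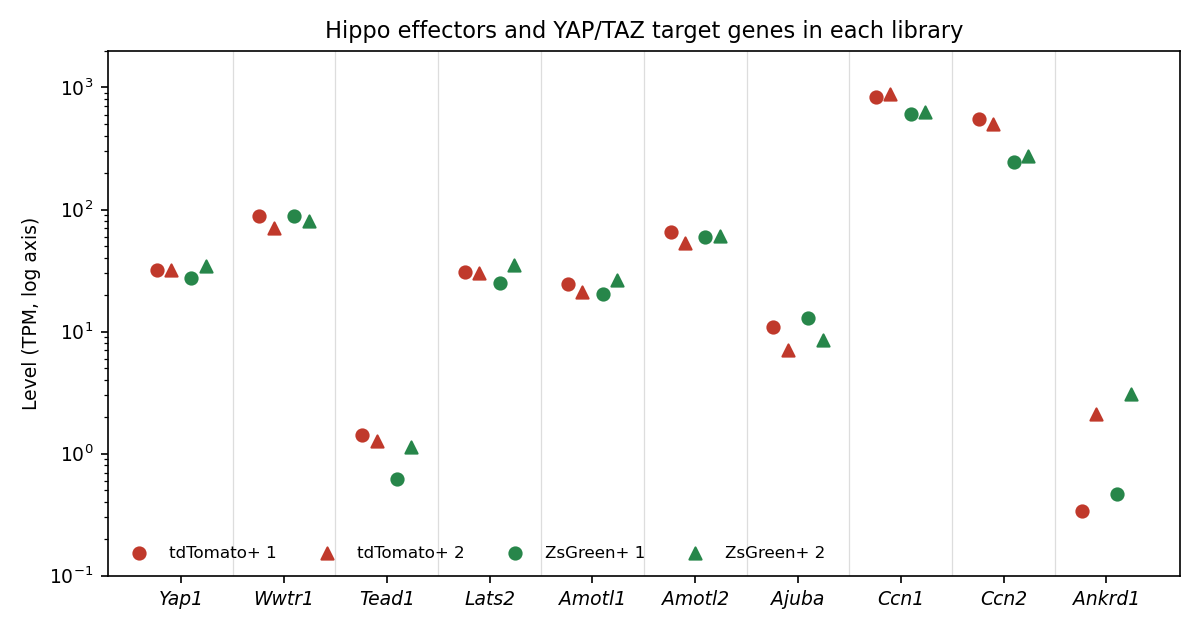
Level in TPM (log axis) of the 10 genes in each library, with red for tdTomato+, green for ZsGreen+, circles for replicate 1 and triangles for replicate 2. Ccn1 and Ccn2 sit highest with both tdTomato+ libraries above both ZsGreen+ libraries, and Ankrd1 is spread more between replicates than between groups.

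Differences between groups were tested over all genes with edgeR's quasi-likelihood test on the estimated counts, and a gene was called at a Benjamini-Hochberg adjusted p under 0.05. Values per library are given in CPM, where each library is scaled to the same total. A log2 fold change above 0 is a higher level in tdTomato+ cells. All 10 members passed the filter on low counts and none was called, against 0.304% of the 13177 genes tested. At an unadjusted p under 0.05 there was 1 member, Ccn2, where 8.77% of all genes were under it, and DESeq2 called this gene while limma-voom called none. Both tdTomato+ libraries lay above both ZsGreen+ libraries in CPM for 3 members (Ccn1, Ccn2 and Tead1), where 19.9% of all genes tested did so. They lay below for 2 members (Yap1 and Amotl1), where 18.2% did so, and the other 5 overlapped. In TPM, which is scaled in another way, the groups overlapped for Yap1 and Amotl1 as well. Over all genes tested, 38.1% did not overlap in either direction. The members' median log2 fold change was -0.14, beside -0.01 over all genes tested, with 3 members above 0 and 7 below. The median of the members was -0.152 with DESeq2, -0.139 with limma-voom and -0.147 to -0.092 with other scalings. It lay between -0.08 and -0.045 when either tdTomato+ library or ZsGreen+ replicate 1 was left out. Without ZsGreen+ replicate 2 it was 0.005, beside 0.038 over all genes. With TPM it was 0.006 to 0.007, where the median of all genes lay at 0.097 to 0.134.

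**Figure D2:**
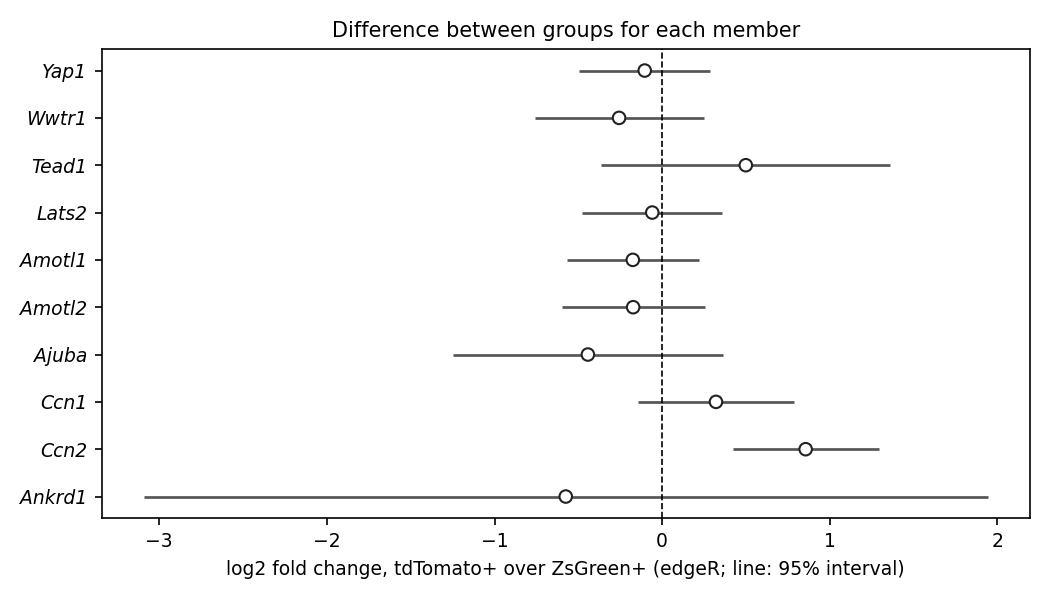
log2 fold change of each member, tdTomato+ over ZsGreen+ (x axis), with its 95% interval from edgeR, not adjusted for the number of genes; open points did not pass the adjusted test. Only the interval of Ccn2, 0.42 to 1.29, lies wholly on 1 side of 0.

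Among the 3 target genes named at the start, Ccn2 had the largest difference. It encodes CCN2, or connective tissue growth factor, a secreted matricellular protein associated with fibrosis, and spans chr10:24595442-24598683 (GRCm38). Its level was 744 and 718 CPM in the tdTomato+ libraries, beside 415 and 393 CPM in the ZsGreen+ ones. Both tdTomato+ libraries were thus well above both ZsGreen+ libraries, and replicates of a group differed by at most 1.05-fold. Between the groups this made a log2 fold change of 0.86 (SE 0.18), a fold of 1.81 with a 95% interval of 1.34 to 2.45. The gene ranked at position 181 of 13177 by p, with an edgeR adjusted p of 0.174, so it was not called. DESeq2 gave an adjusted p of 0.00127 for a log2 fold change of 0.84. Over the 4 fits that each left out a library the log2 fold change stayed between 0.82 and 0.90, with edgeR adjusted p from 0.0646 to 0.866. The annotation places exons of Gm15270, which is not among the genes of the deposited table, on the opposite strand over 665 of the 2861 exon bases of Ccn2. Without a stated strand setting, the reads of the 2 genes on these shared bases cannot be told apart. In bulk samples, fewer cells of a type and less RNA per cell cannot be told apart either, and the levels of markers of other cell types are given after the genes.

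Ccn1 encodes CCN1, or CYR61, a secreted matricellular protein of the same family that binds integrins and responds quickly to stimuli (chr3:145646971-145649985). It stood at 947 and 1059 CPM in the tdTomato+ libraries, beside 855 and 751 CPM in the ZsGreen+ ones. The groups did not overlap, although the gap of the nearest libraries was smaller than the spread within either group. The estimated log2 fold change of 0.32 did not pass the test (SE 0.20, edgeR adjusted p = 0.767), and its 95% interval allows anything from a fold of 0.905 to 1.72. Ccn1 is the most abundant member in every library.

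Because both CCN transcripts are abundant, their balance can be read within each library without any scaling between libraries. The ratio of Ccn2 to Ccn1 in TPM was 0.653 and 0.564 in the tdTomato+ libraries, beside 0.403 and 0.435 in the ZsGreen+ ones. The ratio was higher in both tdTomato+ libraries than in either ZsGreen+ library. With 2 libraries against 2, an exact two-sided permutation test cannot go below 0.333, so no p is given for this ratio.

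Ankrd1 encodes a cardiac ankyrin repeat protein that is strongly induced by YAP in many cell types and by stretch in the heart (chr19:36111965-36119844). Its libraries were ordered in another way than those of Ccn2. It had 6 and 41 counts in the tdTomato+ libraries, beside 9 and 57 counts in the ZsGreen+ ones, or 0.330, 2.15, 0.570 and 3.12 CPM. In both groups the library numbered 2 was the high one, by 6.52-fold in tdTomato+ and 5.48-fold in ZsGreen+ cells, and the groups overlapped. The log2 fold change of -0.58 (SE 1.06, edgeR adjusted p = 0.946) has a 95% interval from -3.09 to 1.94, which covers both a rise as large as that of Ccn2 and a fall of that size. Its direction turned without tdTomato+ replicate 1 (0.21) and without ZsGreen+ replicate 2 (1.12). Cardiomyocyte markers, which could come with a gene of this kind, summed to 14.7 and 21.3 CPM against 14.9 and 19.6 CPM over 8 genes, with Ryr2 at 0 in all libraries and Myh6 and Myl7 at 0 in both tdTomato+ libraries. Most of this sum was Myl4 alone, at 9.02 and 14.9 CPM against 10.2 and 14.0 CPM. Mesothelial markers summed to 3.91 and 10.5 CPM against 8.16 and 17.3 CPM over 5 genes, also higher in the library numbered 2 of each group. In ZsGreen+ cells this order came from Gpm6a, at 6.07 and 15.1 CPM, and no other mesothelial marker exceeded 1.84 CPM there. The part of either cell type in the Ankrd1 values was not tested.

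**Figure D3:**
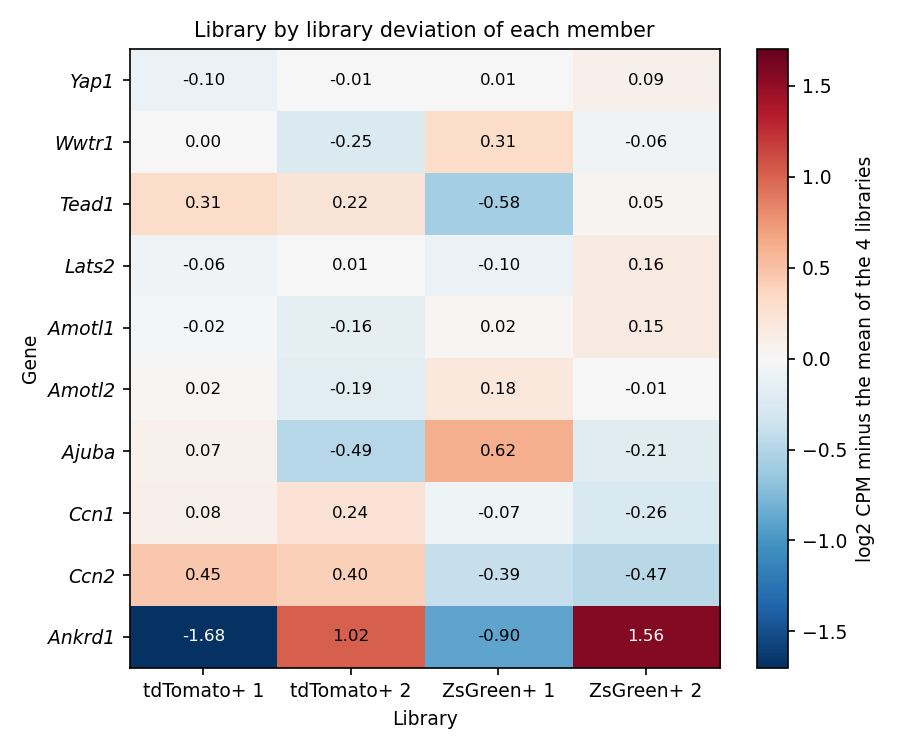
Colour and printed number give log2 CPM of each member (rows) in each library (columns) minus its mean over the 4 libraries. Ccn2 is at 0.45 and 0.40 in tdTomato+ and at -0.39 and -0.47 in ZsGreen+ libraries. Ankrd1 and Ajuba change more between the replicate numbers than between the groups, as do Wwtr1, Amotl2 and Lats2 to a lesser extent.

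For the effectors themselves no difference was detected. Yap1 stood at 76.7 and 81.5 CPM in the tdTomato+ libraries, beside 82.6 and 87.4 CPM in the ZsGreen+ ones. The tdTomato+ libraries were slightly lower in CPM, but in TPM the groups overlapped, at 31.8 and 32.0 against 27.7 and 34.6, and limma on the TPM values put the log2 fold change at 0.041, on the other side of 0, where the median of all genes lay at 0.12. In the counts the difference came to -0.10 on the log2 scale (SE 0.17, edgeR adjusted p = 0.938), and the 95% interval of the fold, 0.709 to 1.22, does not reach a doubling or a halving. Exons of Gm20416 overlap 116 of 9257 exon bases of Yap1 on the opposite strand, with the same limit as for Ccn2.

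Wwtr1, which encodes TAZ (chr3:57455644-57575910), stood at 247 and 207 CPM against 307 and 236 CPM, with overlapping groups. The groups differed by a log2 fold change of -0.26 (SE 0.21, edgeR adjusted p = 0.84), with a fold interval of 0.59 to 1.19. It was -0.052 without ZsGreen+ replicate 1 and -0.437 without ZsGreen+ replicate 2. Per length, Wwtr1 was the more abundant effector in every library, at 2.77 and 2.20 times the TPM of Yap1 in tdTomato+ and 3.20 and 2.32 times in ZsGreen+ cells.

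Tead1 (chr7:112679356-112906784) encodes TEAD1, 1 of the 4 DNA-binding partners of YAP and TAZ. It had 154 and 152 counts in the tdTomato+ libraries, beside 72 and 129 in the ZsGreen+ ones, or 8.47 and 7.98 CPM against 4.56 and 7.07 CPM. Both tdTomato+ libraries were higher, but ZsGreen+ replicate 1 was low by itself, and without it the log2 fold change fell from 0.50 (SE 0.36, edgeR adjusted p = 0.822) to 0.22. Without ZsGreen+ replicate 2 it was 0.85.

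Tead1 was a minor part of the TEAD transcripts. The other 3 TEAD genes come from the list of further Hippo genes and are named here outside the rule for named genes. Tead2 stood at 69.8 and 76.2 TPM in the tdTomato+ libraries, beside 59.8 and 54.6 TPM in the ZsGreen+ ones, and took 79.3% to 82.9% of the summed TEAD level in each library. Tead4 took 13.9% to 16.7%, Tead3 1.87% to 2.55% and Tead1 0.859% to 1.69%. The sum itself was 84.6 and 92.8 TPM in tdTomato+ and 72.2 and 68.8 TPM in ZsGreen+ cells. The groups did not overlap in this sum of TPM, where limma on filtered TPM put the median of all genes at 0.12. In CPM the groups overlapped for Tead2, at 83.8 and 96.1 against 88.4 and 68.3. No TEAD gene was called. The log2 fold changes in the counts were 0.20 for Tead2 (SE 0.20), 0.20 for Tead3 (SE 0.49) and 0.05 for Tead4 (SE 0.21).

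**Figure D4:**
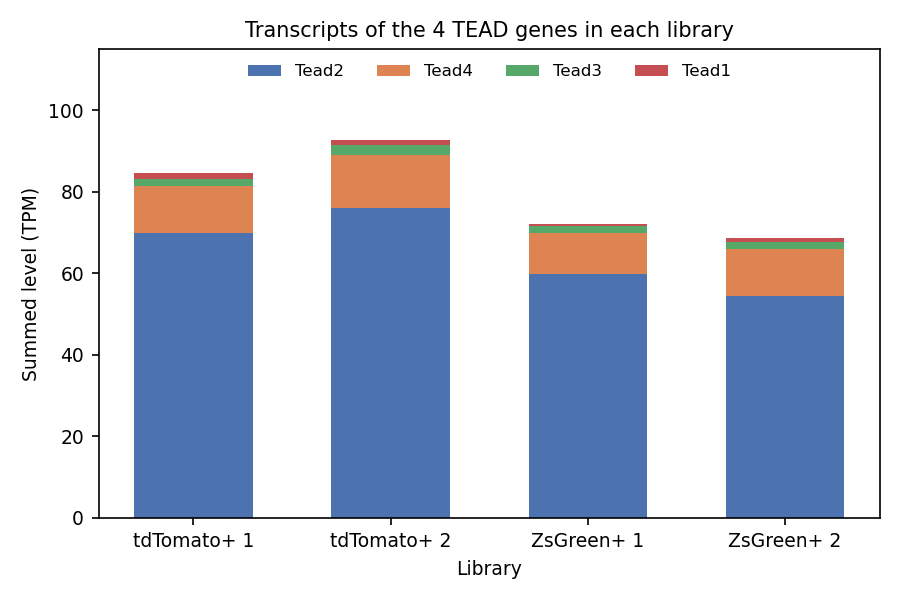
Stacked bars of the TPM of Tead2, Tead4, Tead3 and Tead1 (bottom to top) in each library, starting at 0. Tead2 makes up most of every bar and Tead1 is the thin slice at the top, between 0.62 and 1.43 TPM.

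Of the regulators among the members, none was called, and for 3 of the 4 the interval of the fold stayed within 0.66 to 1.28. Lats2, a kinase that phosphorylates YAP and TAZ and is itself a YAP/TAZ target (chr14:57689662-57746212), stood at 88.3 and 92.7 CPM against 85.7 and 103 CPM. ZsGreen+ cells held both its lowest and its highest library. A log2 fold change of -0.06 was fitted (SE 0.18, edgeR adjusted p = 0.972), and it turned to 0.076 without ZsGreen+ replicate 2. Its estimated counts were not whole, and which gene shared its reads was not tested. The annotation places exons of Gm49361, a gene not analysed here, over 2955 of its 6971 exon bases on the same strand. Lats2 was the main LATS transcript, at 8.79 to 12.6 times the TPM of Lats1 over the libraries.

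Amotl1 (chr9:14541966-14662974) and Amotl2 (chr9:102717091-102733418) encode angiomotin-like scaffolds of endothelial junctions that bind YAP and TAZ, and Amotl2 is also a known target gene. Amotl1 stood at 133 and 121 CPM in the tdTomato+ libraries, beside 137 and 149 CPM in the ZsGreen+ ones, a log2 fold change of -0.17 (SE 0.17, edgeR adjusted p = 0.87). Its groups did not overlap in CPM, but the gap between the nearest libraries was smaller than the spread in either group. In TPM they overlapped, at 24.5 and 21.3 against 20.5 and 26.5. Amotl2 stood at 161 and 139 CPM against 180 and 157 CPM, with overlap and a log2 fold change of -0.17 (SE 0.18, edgeR adjusted p = 0.888). Amotl2, Lats2 and Ankrd1, which are counted as YAP/TAZ targets like Ccn1 and Ccn2, thus had values below 0 where the CCN genes had values above 0. None of the 5 passed the test. Over the fits without 1 library, the value of Amotl1 ran from -0.248 to -0.086 and that of Amotl2 from -0.286 to -0.046.

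Ajuba encodes a LIM-domain protein that restrains LATS kinases at junctions (chr14:54567469-54577661). It stood at 22.3 and 15.1 CPM in the tdTomato+ libraries, beside 32.6 and 18.3 CPM in the ZsGreen+ ones. The library numbered 1 was the higher in each group, and the groups overlapped. A log2 fold change of -0.44 was fitted (SE 0.34, edgeR adjusted p = 0.827), and without ZsGreen+ replicate 1 it was 0.035.

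Other genes of the pathway were taken from a list of 27 kinases, scaffolds, upstream regulators, TEAD genes and TEAD cofactors, of which 26 were in the table and 24 passed the filter. None was called by edgeR, DESeq2 or limma-voom, and at an unadjusted p under 0.05 edgeR had 2, where 8.77% of all genes were under it. Their median log2 fold change was 0.03, beside -0.01 over all genes. In 17 of the 24 the groups overlapped, with 3 higher and 4 lower in both tdTomato+ libraries, where 19.9% and 18.2% of all genes were so. By the rule for named genes, Frmd6, a FERM-domain protein upstream of the kinases, stood at 34.1 and 43.9 CPM against 57.4 and 61.7 CPM, a log2 fold change of -0.61 (SE 0.20, edgeR adjusted p = 0.413). Ptpn14, a phosphatase that binds YAP and is itself a target gene, had 41.2 and 37.3 CPM against 28.4 and 26.1 CPM (0.53, SE 0.20, edgeR adjusted p = 0.484). Dchs1, a large protocadherin, came to 0.54 on the log2 scale (SE 0.25) and the LIM protein Wtip to -0.73 (SE 0.43), the latter with overlapping groups. Single libraries moved both, Dchs1 to 0.241 without ZsGreen+ replicate 2 and 0.92 without ZsGreen+ replicate 1, while Wtip was nearest to 0 without ZsGreen+ replicate 2 (-0.188) and farthest from it (-1.147) when tdTomato+ replicate 2 was left out.

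Further target genes were read from a published list of 22 YAP/TAZ targets, derived from tumours, which holds 5 of the members (Ccn1, Ccn2, Ankrd1, Amotl2 and Lats2). All of its other 17 genes passed the filter. Of these, 2 rose in tdTomato+ cells and none fell, where 0.167% of all genes tested rose and 0.137% fell. Their median log2 fold change was 0.53, with 15 above 0, beside a median of -0.01 over all genes. Both tdTomato+ libraries lay above both ZsGreen+ libraries for 9 of the 17 and below for none, where 19.9% of all genes tested lay above and 18.2% below. The list was chosen with earlier results of these data known. It is described by these counts, and its difference from other genes was not tested.

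The rises were in Myof and Ccdc80. Myof encodes myoferlin, a membrane protein of vesicle fusion and repair, and stood at 102 and 100.4 CPM in the tdTomato+ libraries, beside 26.3 and 26.0 CPM in the ZsGreen+ ones. The libraries of each group were nearly alike, and they differed by a log2 fold change of 1.95 (SE 0.17, edgeR adjusted p = 0.0304). The call ended without tdTomato+ replicate 1 (1.94, edgeR adjusted p = 0.0575) and without tdTomato+ replicate 2 (1.99, edgeR adjusted p = 0.126). Ccdc80, a secreted matrix-associated protein, stood at 87.0 and 102 CPM against 21.9 and 18.1 CPM, with a log2 fold change of 2.24 (SE 0.20, edgeR adjusted p = 0.0304). Without tdTomato+ replicate 2 it was 2.14 and no longer called (edgeR adjusted p = 0.126).

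Crim1, a transmembrane protein that binds growth factors, stood at 187 and 190 CPM against 129 and 130 CPM, and its log2 fold change of 0.55 (SE 0.16, edgeR adjusted p = 0.34) did not pass. Fjx1, related to a fly gene that acts on Fat cadherins, had 9.63 and 9.35 CPM against 5.06 and 2.58 CPM, a log2 fold change of 1.31 (SE 0.42, edgeR adjusted p = 0.387), which was 1.881 without ZsGreen+ replicate 1 and 0.902 without ZsGreen+ replicate 2. For both genes the groups did not overlap. Of the 17 genes, 11 matched the promoter table and 3 of them, Axl, Crim1 and Ptpn14, held a GGAATG in the window described above; Myof held none and Ccdc80 was not among the 11.

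**Figure D5:**
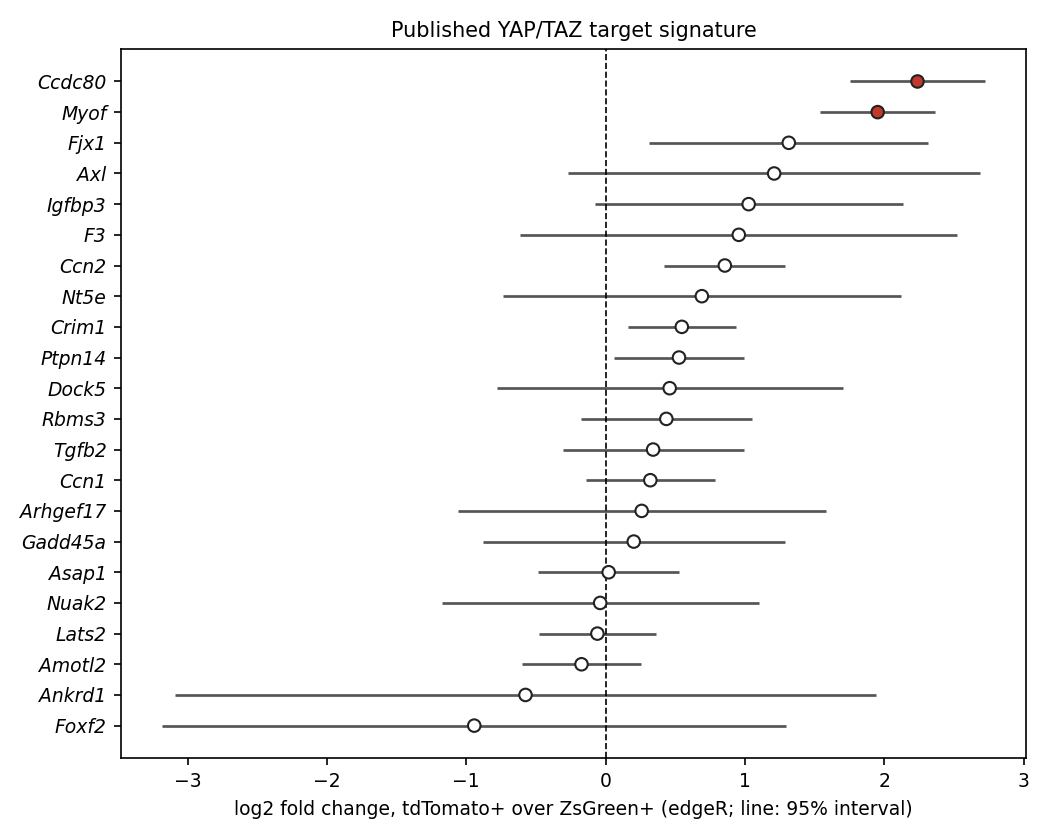
log2 fold change, tdTomato+ over ZsGreen+ (x axis), with its 95% interval for the 22 genes of the published target list, in order of the estimate; filled points passed edgeR's adjusted test. Ccdc80 and Myof are filled at the top, Ccn2 lies in the upper part with an interval above 0, and Amotl2, Lats2 and Ankrd1 lie at the bottom around or below 0.

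Markers of other cell types were also compared between the groups. For scale, 19.9% of all genes tested were higher and 18.2% lower in both tdTomato+ libraries than in both ZsGreen+ ones. Fibroblast markers summed to 243 and 447 CPM in tdTomato+ libraries and to 101 and 125 CPM in ZsGreen+ libraries over 10 genes, of which 6 were higher in both tdTomato+ libraries and none was at 0 in any library. Ccn2 and Ccdc80 are also expressed by fibroblasts, and the part of such cells in their values was not tested. Pericyte and smooth muscle markers summed to 1365 and 1833 CPM against 1330 and 930 CPM, nearly all of it Tagln, with 3 of 10 higher, 2 lower and none at 0. Of 11 alveolar and airway epithelial markers, 6 were higher and 1 lower in both tdTomato+ libraries, none was at 0 and none was called, with a median log2 fold change of 0.88. They summed to 436 and 524 CPM against 275 and 530 CPM. Most of the sum in ZsGreen+ replicate 2 was the airway gene Scgb1a1, at 47.6 and 54.4 CPM against 17.7 and 384 CPM. The marker with the highest mean over the libraries, the surfactant gene Sftpc, stood at 251 and 282 CPM against 163 and 68.4 CPM. The part of epithelial cells in the values of the Hippo genes was not tested.

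Lymphatic endothelial markers were lower in both tdTomato+ libraries for 7 of the 8 measured, where 18.2% of all genes tested were so. Their median log2 fold change was -2.21. Of these markers, 4 (Mmrn1, Reln, Thy1 and Fxyd6) were called by edgeR, the only calls in any of these marker lists. Thy1, for example, stood at 7.32 and 9.24 CPM against 57.6 and 71.3 CPM, while Lyve1, the exception, was at 503 and 840 CPM against 407 and 593 CPM. The part of lymphatic cells in the values of the Hippo genes was not tested. Leukocyte markers were higher in both tdTomato+ libraries for 5 of 9, beside 19.9% of all genes tested. They summed to 4489 and 2307 CPM against 2597 and 553 CPM. The general endothelial markers were present in every library, led by Pecam1 at 1809 to 2104 CPM, and summed to 6344 and 5960 CPM against 7571 and 6879 CPM. Immediate early genes, a class to which Ccn1 is often counted, summed to 15990 and 11550 CPM against 17390 and 9574 CPM over 13 genes. This sum was higher in the library numbered 1 of each group and overlapped between groups, an order that Ccn1 shared in ZsGreen+ but not in tdTomato+ cells. The recorded gene itself, Acta2, checks the labels: it stood at 304 and 528 CPM in tdTomato+ and at 87.6 and 82.9 CPM in ZsGreen+ libraries.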

How the data were processed

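RNA from sorted endothelial cells of mouse lung was amplified over the whole transcriptome from little RNA before library making, per the labels' protocols, and as molecular identifiers are not mentioned, a count need not be a separate molecule. The authors deposited estimated counts, of which 16.2% to 17.9% were not whole, and TPM, scaled per length to the same sum in each library, per the file headers. RSEM 1.3.1, DESeq2 1.4.5 and the builds mm10 and GRCm38 are named in the submitters' processing notes without their roles; the sources used here give neither aligner nor strand setting. Another 8 columns of per-library values were not used. Total counts were 17399497 and 18574737 in tdTomato+ replicates 1 and 2, and 17050673 and 18165494 in ZsGreen+ replicates 1 and 2.

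Counts were rounded and tested with edgeR 4.0.16 in R 4.3.3 (quasi-likelihood F-test, two-sided, group only, TMM, filterByExpr with a minimum count of 10, Benjamini-Hochberg over 13177 genes). SE is the size of the log2 fold change divided by the root of F, and the 95% intervals use the moderated degrees of freedom. The common biological coefficient of variation was 26.1%. Named are all 10 members. From the list of other Hippo genes and from the target list, each called gene is named. So are the 4 genes per list with the smallest p at a mean of at least 1 CPM. Genes of these lists named outside this rule are Tead2, Tead3, Tead4, Lats1, Sav1, Gadd45a, Nuak2, Axl and Foxf2. Members and lists were chosen with earlier results of these data known. Alternatives used DESeq2 1.42.0, limma 3.58.1, other scalings and filters, TPM, a replicate block and fits without each library. Spans are given where the table and RefSeq (GRCm38) share them, which left out that of Yap1, and exon overlaps are from GENCODE M21.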

Additional observations from a re-analysis of the deposited data

How the results depend on the processing

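Of 130 values for the members under 13 alternatives, 118 kept direction and side of the threshold, 2 were newly called and 10 changed sign. The newly called values are those of Ccn2, 0.84 with DESeq2 and 0.86 with the replicate block, so the count of members called became 1 in each. Changes of sign were Ankrd1 without tdTomato+ replicate 1 (0.211) and without ZsGreen+ replicate 2 (1.116; range without single libraries -2.451 to 1.116), Ajuba without ZsGreen+ replicate 1 (range -0.805 to 0.035), Lats2 without ZsGreen+ replicate 2 (range -0.183 to 0.076), and Yap1 and Lats2 with limma on TPM, at 0.041 and 0.031 with a pseudocount of 1, filtered or not, and 0.042 and 0.033 with 0.1. With filtered TPM the median of all genes lay at 0.12 and 0.13, so relative to it Yap1 (-0.08 and -0.09) and Lats2 (-0.09 and -0.10) were lower and Ccn2 (0.89 and 0.88) higher. The cause of the other changes was not tested.

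The 40 genes called became 128 without a filter on low counts, 330 with DESeq2, 22 with limma on log2 TPM plus 0.1 and 0 with limma on unfiltered TPM, where 1508 genes had an unadjusted p under 0.05. Without single libraries the count ran from 4 (without tdTomato+ replicate 2) to 304 (without ZsGreen+ replicate 1), and was 17 without tdTomato+ replicate 1 and 26 without ZsGreen+ replicate 2. Of the 17 further target genes, 2 calls became 1 with limma on filtered TPM at either pseudocount, 0 on unfiltered TPM, and 0 to 3 without single libraries; this and the named list genes were added after seeing the data. The list of other Hippo genes had no call in any alternative.

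Same-numbered libraries shared a replicate number, and the labels do not say whether they came from the same mice. Their deviations correlated at 0.455 over genes, and 7 of 10 members, beside 56.9% of all genes, were ordered alike by number in both groups. The replicate block called 934 genes and 5 of the 17 further targets. Ankrd1 had 6 to 57 counts a library, and its replicates differed by 5.48-fold or more.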

Other observations

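Some genes of both lists, named here after their values were seen, differed between the replicate numbers more than between the groups. Sav1, the scaffold of the MST kinases, stood at 37.1 and 65.5 CPM in the tdTomato+ libraries, beside 37.6 and 71.5 CPM in the ZsGreen+ ones, with the library numbered 2 the higher in each group as for Ankrd1. The target genes Gadd45a, a stress response gene, and Nuak2, a kinase, ran the other way. Gadd45a stood at 33.9 and 16.4 CPM against 30.1 and 13.8 CPM, and Nuak2 at 65.1 and 34.1 CPM against 74.0 and 28.0 CPM. None of the 3 was called by edgeR, with adjusted p of 0.976, 0.96 and 0.993.

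Axl, a receptor tyrosine kinase and YAP/TAZ target that macrophages also express, stood at 76.9 and 49.2 CPM in the tdTomato+ libraries, beside 44.9 and 9.70 CPM in the ZsGreen+ ones, with a log2 fold change of 1.21 (SE 0.62, edgeR adjusted p = 0.69). It was highest in tdTomato+ replicate 1 and lowest in ZsGreen+ replicate 2, as was the sum of the 9 leukocyte markers, and the part of leukocytes in its values was not tested. The forkhead factor gene Foxf2, at 0.220 to 1.26 CPM, was too low to compare.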
